A study of Mus musculus with 18 samples.

Results

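The genes described here code for collagens, for the laminins, nidogens and heparan sulfate proteoglycans of basement membranes, and for fibronectin, SPARC, the lysyl oxidases and peroxidasin, which bind, cross-link or organise that matrix. They were picked by gene symbol, and the rule found 66 of the 28252 genes with a deposited TPM value (a level corrected for gene length and library size). Of these, 43 are collagen chains, 11 are laminin chains and 12 are other matrix genes. The group was chosen with earlier results of these libraries known: its reads in the microdissected libraries had been read as stromal RNA, and *Pxdn* was chosen by its reads in MII (metaphase II) oocytes grown *in vitro* and their absence in MII oocytes grown *in vivo*. The presence of reads in the microdissected libraries and the MII values of *Pxdn* are therefore given as descriptions, with no test.

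All animals were C57Bl/6j x CBA/J mice, and 18 libraries fell into 6 groups of 3. Oocytes of primordial and of primary follicles were cut by laser capture microdissection from 5 µm sections of fixed, paraffin-embedded ovaries. In the *in vivo* groups these came from ovaries of 14-day-old mice that had not been cultured, and in the *in vitro* groups from ovaries of 7-day-old mice kept for 7 days in α-MEM with 10% fetal bovine serum. That medium also held recombinant FSH, insulin, transferrin and selenium, so that culture and these additives cannot be told apart. MII oocytes *in vivo* came from superovulated adult mice. Those *in vitro* came from secondary follicles of cultured ovaries, which grew for 12 days in alginate, again with recombinant FSH, and then received hCG. The captured material was pooled per stage, and no source says that the libraries of a group came from separate animals, so that p-values measure the spread between these libraries, which may be technical. Microdissected and MII libraries were made with different kits, so that stage and kit cannot be told apart between them and no test compared them.

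A basement membrane is a thin sheet of matrix around each follicle, built of laminin trimers and a collagen IV network that nidogens, perlecan (*Hspg2*) and agrin (*Agrn*) tie together. Each laminin has an alpha, a beta and a gamma chain, and each collagen is a helix of intertwined chains in which glycine recurs as the first residue of successive triplets. Fibrillar collagens of types I, III and V are made mainly by fibroblast-like stromal cells. Lysyl oxidases cross-link collagen and elastin, and peroxidasin (*Pxdn*) forms the sulfilimine bonds that hold collagen IV molecules together.

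The repeat that sets the collagen chains apart could be read from their coding sequences (GENCODE release 21, GRCm38). In all 43 collagen members the longest run of codon triplets that each begin with a glycine codon was 23 to 344 triplets, with a median of 57. In the 23 other members it was at most 4, and 98 of 21614 coding genes of the annotation held a run of at least 10. A stretch of 90 bases from that run is shown for the member with the highest level in the microdissected oocytes (*Col1a1*), for the collagen IV chain with the highest level there (*Col4a5*) and for a collagen with reads only in MII oocytes (*Col19a1*), with the glycine codons in capitals.
Col1a1: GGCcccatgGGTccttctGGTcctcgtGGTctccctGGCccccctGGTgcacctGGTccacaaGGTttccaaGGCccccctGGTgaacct
Col4a5: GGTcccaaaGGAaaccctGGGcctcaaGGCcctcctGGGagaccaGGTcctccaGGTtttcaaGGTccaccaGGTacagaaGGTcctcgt
Col19a1: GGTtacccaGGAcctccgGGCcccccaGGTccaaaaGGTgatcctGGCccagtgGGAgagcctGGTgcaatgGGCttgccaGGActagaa

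The collagen IV chains are encoded in head-to-head pairs, and *Col4a1* and *Col4a2* start from opposite strands of the same stretch of chromosome 8. The RefSeq windows from 250 bases before to 50 bases after the start (GRCm38.p6) cover chr8:11312777-11313076 on the minus strand for *Col4a1* and chr8:11312555-11312854 on the plus strand for *Col4a2*. They share 78 bases. They are shown because the reads of this pair are set side by side below, with CCAAT and GGGCGG and their reverse complements in capitals.
Col4a1: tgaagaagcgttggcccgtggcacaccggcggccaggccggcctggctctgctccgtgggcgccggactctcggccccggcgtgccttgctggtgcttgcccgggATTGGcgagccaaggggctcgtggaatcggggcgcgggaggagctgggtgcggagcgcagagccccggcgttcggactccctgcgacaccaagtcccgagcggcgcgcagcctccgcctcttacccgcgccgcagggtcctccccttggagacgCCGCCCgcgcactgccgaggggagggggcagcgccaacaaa
Col4a2: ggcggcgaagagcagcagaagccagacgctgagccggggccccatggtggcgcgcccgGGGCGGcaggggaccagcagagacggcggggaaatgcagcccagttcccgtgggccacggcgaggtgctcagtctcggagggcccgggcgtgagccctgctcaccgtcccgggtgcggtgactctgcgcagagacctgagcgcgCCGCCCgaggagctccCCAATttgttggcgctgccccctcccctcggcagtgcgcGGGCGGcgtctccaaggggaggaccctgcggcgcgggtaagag
RefSeq windows were matched for 46 members, some with more than 1 start. GGGCGG or its reverse complement was in 32 of their 51 windows (62.7%) and in 35.7% of all 32851 windows. CCAAT was in 31.4% against 37.4% of all, and TATAAA in 9.80% against 13.6%. A match of letters is a description and not a binding site.

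The total count was 15149564 to 29205503 per microdissected library and 7334817 to 9978830 per MII library. A floor of 3 reads corresponded to 0.103 to 0.198 CPM (reads scaled to the library total) and 0.301 to 0.409 CPM, and such floors cover counting error only. Oocyte markers were present in every library (summed level 205 to 1437 CPM in the microdissected and 8232 to 14086 CPM in the MII libraries). Of 14 granulosa markers 2, *Wt1* and *Gja1*, had more than 3 reads in all 12 microdissected libraries. *Fshr* had no read in them, and the summed granulosa markers there were 98.4 to 3635 CPM. In primary oocytes this sum was 561 to 1338 CPM *in vivo* and 1881 to 3635 CPM *in vitro*, without overlap. In primordial oocytes it was 98.4 to 1223 CPM and 779 to 3368 CPM. Of 11 stroma and theca markers 2, *Dcn* and *Ptch1*, had more than 3 reads in all 12 microdissected libraries. The sum of that list there was 102 to 2866 CPM. Primary *in vivo* library 2 stood apart. Its summed smooth muscle and pericyte markers were 14593 CPM against at most 356 CPM in the 11 other microdissected libraries. Most of this came from 240844 reads of *Acta2* and 68705 of *Myh11*. The rest of the list had 7523 (*Tagln*), 4123 (*Des*), 1941 (*Cnn1*), 726 (*Pdgfrb*), 12 (*Rgs5*) and 5 (*Cspg4*) reads there. *Pdgfrb* had 3304 reads in primordial *in vivo* library 2, and *Cspg4* had 451 in primordial *in vivo* library 1. Primary *in vitro* library 2 had the highest sum of surface epithelium markers (3034 CPM, 41859 reads of *Krt19*). Primordial *in vitro* library 1 had the highest sum of endothelium markers (842 CPM against at most 81.3 CPM in the 11 others), nearly all of it from 12584 reads of *Tek*. Of the other markers in that list, *Tie1* had 165 and *Egfl7* 6 reads there, and *Pecam1*, *Cdh5*, *Kdr*, *Vwf* and *Cldn5* had none. This library also held the highest CPM of *Col4a1* and *Lama2* of the microdissected libraries. Of 8 immune markers 3, among them *Ptprc*, had no read in any library, and their sum was 0 to 23.1 CPM in the microdissected libraries, the highest in primary *in vivo* library 2 with 494 reads of *Csf1r*. In MII oocytes the immune sum was 22.03 to 55.6 CPM, with 132 to 302 reads of *Csf1r*. The endothelium and smooth muscle sums there were 127 to 232 and 48.0 to 162 CPM. More than 3 reads in every MII library were found for 2 of 8 immune, 4 of 8 endothelium and 2 of 8 smooth muscle markers. No MII read was found for 5, 2 and 3 of these markers, among them *Ptprc*, *Cdh5* and *Des*, and *Acta2* had at most 12. The part of these other cells in the results was not tested, and in such samples fewer cells of a type and less RNA per cell cannot be told apart.

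Reads of the 66 genes were a small share of each library. They made up 0.596%, 0.842% and 0.412% of all gene reads in primordial oocytes *in vivo* and 0.741%, 0.589% and 1.46% *in vitro*. In primary oocytes the shares were 0.484%, 3.66% and 0.367% *in vivo* and 0.570%, 0.993% and 0.493% *in vitro*. In MII oocytes they were 0.177%, 0.170% and 0.150% *in vivo* and 0.0851%, 0.0676% and 0.109% *in vitro*. The microdissected groups overlapped, with primary *in vivo* library 2 far above all others, whereas the MII *in vivo* libraries were all above the MII *in vitro* libraries. Without *Lamb1* the MII shares overlapped, at 0.0342%, 0.0384% and 0.0348% *in vivo* and 0.0292%, 0.0362% and 0.0310% *in vitro*. These shares still include *Pxdn*, chosen by its MII reads, which held 0.00434%, 0.00247% and 0.00348% *in vitro* and 0% *in vivo*. The overlap therefore cannot be read apart from that gene.

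**Figure D1:**
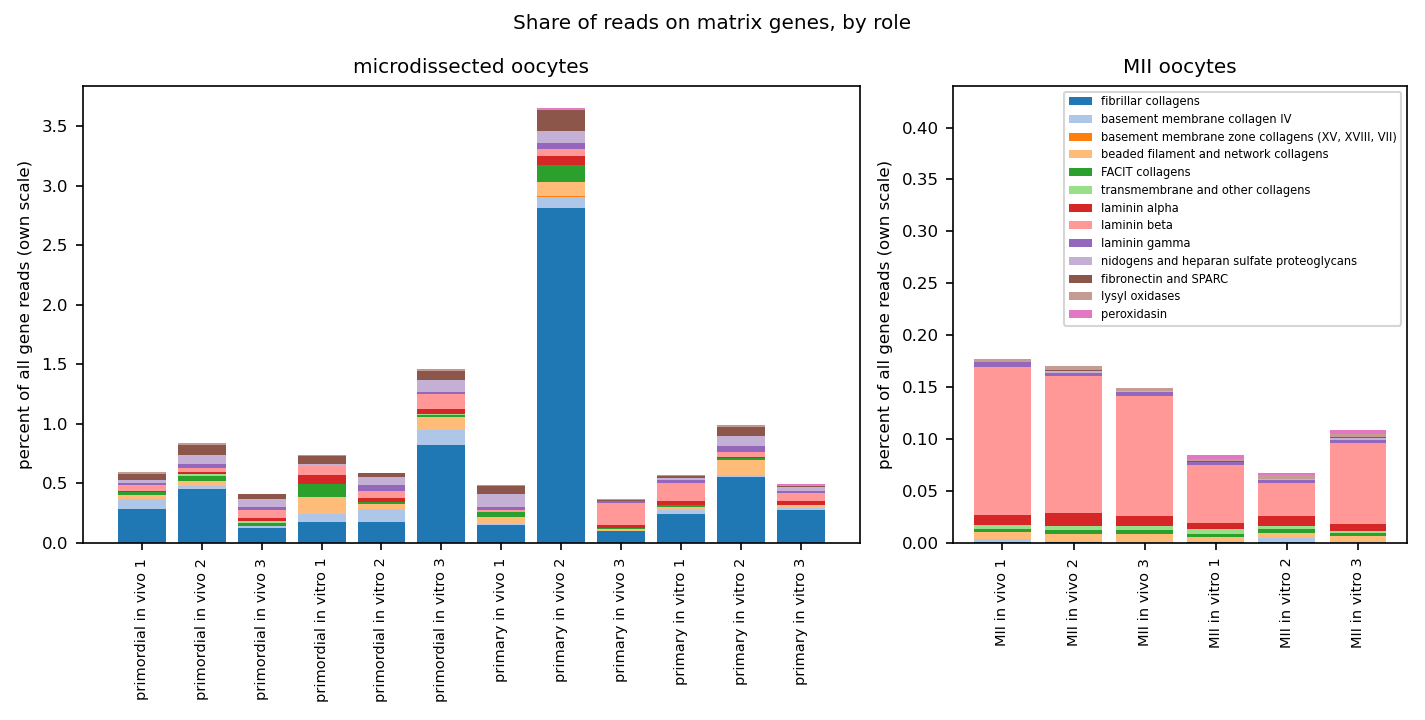
Stacked bars of the percent of all gene reads on the 66 matrix genes in each library, coloured by role, with microdissected oocytes on the left and MII oocytes on the right, each with its own vertical scale starting at 0. Fibrillar collagens (dark blue) were 23.8% to 77.0% of the matrix reads in the microdissected libraries, and laminin beta chains (pink) were 46.6% to 80.7% in the MII libraries.

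Which matrix genes had reads differed between the 2 kinds of library. In the microdissected libraries 6 members had no read, and 19 had more than 3 reads in all 12. In the MII libraries 22 had no read, 25 never had more than 3, and 20 had more than 3 in all 6. Reads in the microdissected libraries and none in MII were seen for 20 members, the reverse for *Col10a1*, *Col19a1*, *Col28a1* and *Lamb3*, and no read anywhere for *Col9a1* and *Loxl4*. Stage and kit cannot be told apart in these counts.

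**Figure D2:**
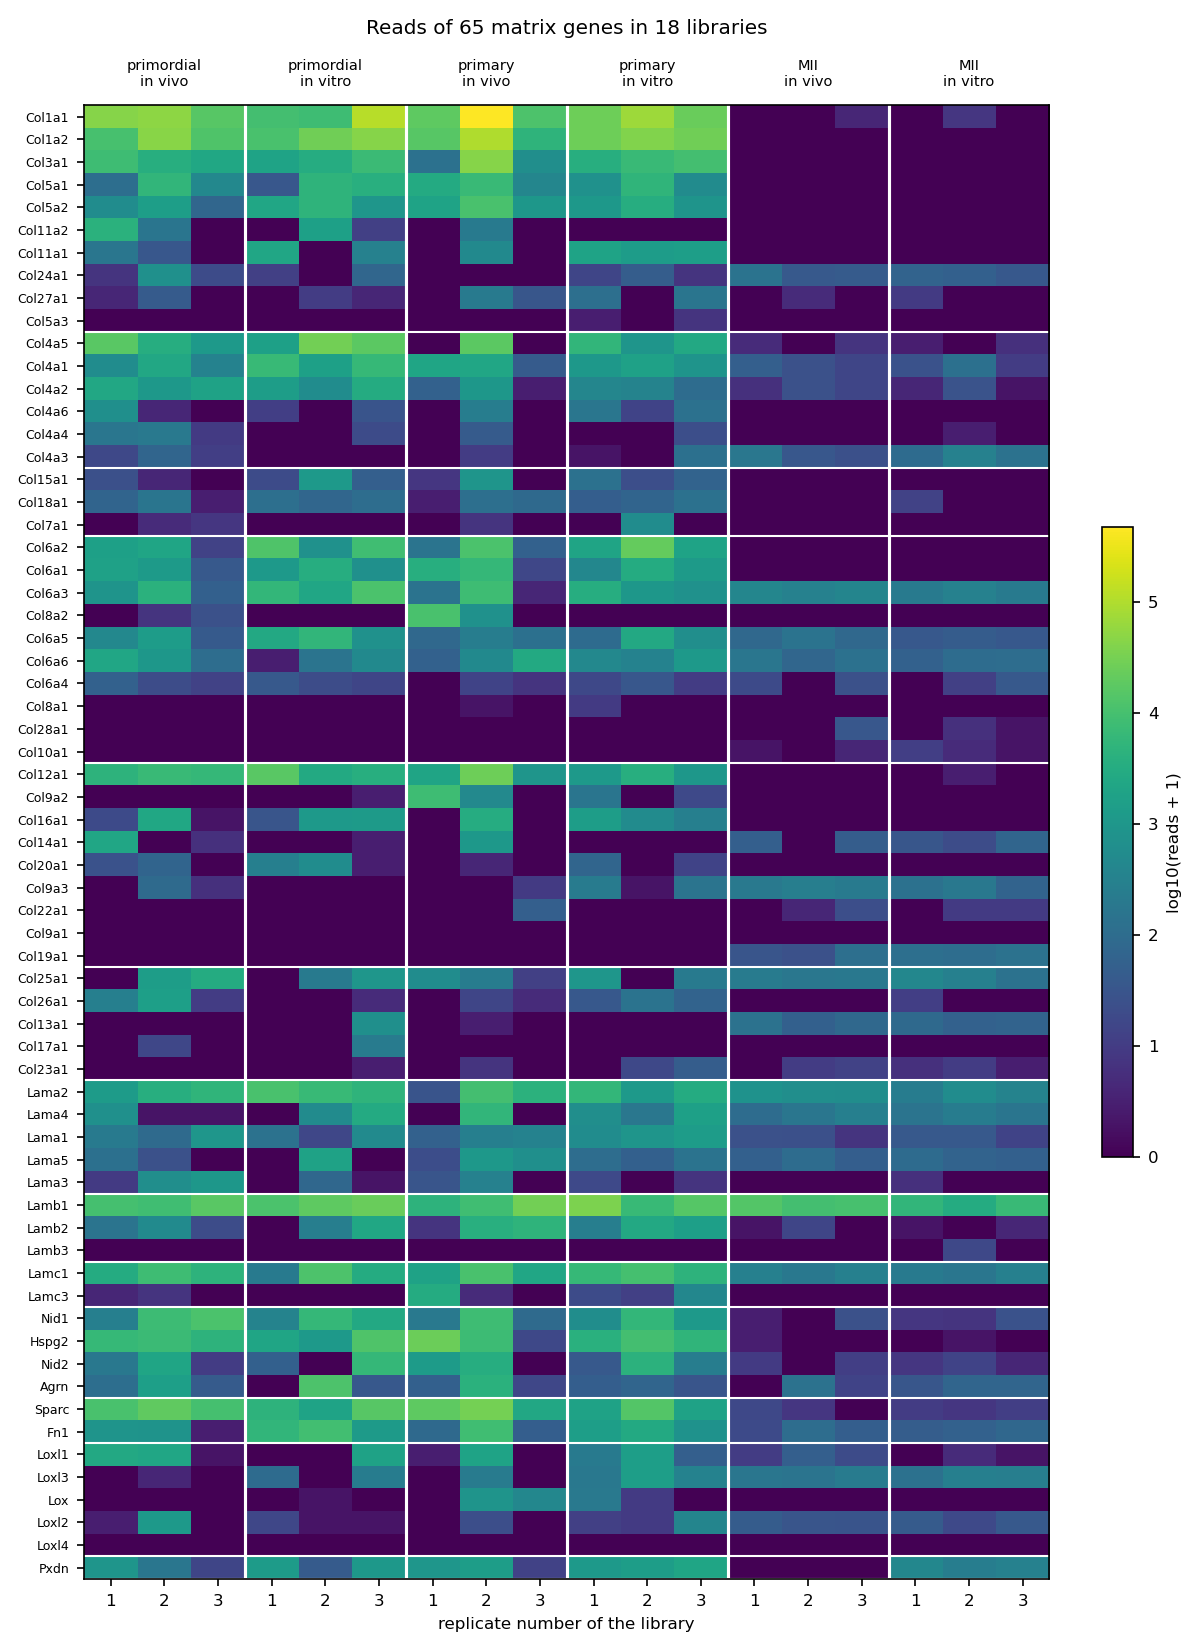
Heat map of log10(reads + 1) of 65 of the 66 genes (rows, ordered by role and then by mean TPM in microdissected oocytes, white lines between roles) in the 18 libraries (columns, in groups of 3). Dark cells are 0 reads: the fibrillar collagens in the top block fall to 0 or near 0 in the 6 MII columns except *Col24a1*, while *Lamb1* is bright in all 18.

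Fibrillar collagens held the most member reads in 11 of the 12 microdissected libraries (laminin beta chains in primary *in vivo* library 3), at 23.8% to 77.0% of the members' reads with a median of 45.4%. *Col1a1*, the alpha-1 chain of type I collagen, had the highest level of all members there, with a mean of 1544 TPM (rank 98 of 28252 genes). *Col1a2*, the alpha-2 chain of the same protein, followed among the collagens with 343 TPM, and *Col3a1*, the single chain of type III collagen, had 106 TPM.

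*Col1a1* had 44186, 51276 and 15424 reads in primordial oocytes *in vivo* and 9286, 8266 and 117039 *in vitro*. In primary oocytes it had 18363, 466458 and 12234 reads *in vivo* and 25879, 68819 and 23588 *in vitro*. The highest value, 57.5% of the members' reads in its library, was in primary *in vivo* library 2, the library with the smooth muscle markers, and the groups overlapped throughout. In MII oocytes *Col1a1* had 0, 0 and 3 reads *in vivo* and 0, 7 and 0 *in vitro*.

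*Col1a2* had 10312, 45439 and 12862 reads in primordial oocytes *in vivo*, 10911, 28106 and 44215 *in vitro*, 15742, 96860 and 4755 in primary oocytes *in vivo* and 25743, 40022 and 28122 *in vitro*. *Col3a1* had 7958, 3509 and 2393 reads, 1979, 3309 and 7290, 132, 42750 and 620, and 3514, 6789 and 9363 in the same order. All 3 type I and III chains were present in every microdissected library, and again highest in primary *in vivo* library 2. The TPM ratio of *Col1a1* to *Col1a2* was 0.557 to 9.12 over the 12 libraries, with a median of 2.24, and was above 1 in 11 of them. *Col1a2*, *Col3a1*, *Col5a1* and *Col5a2* had no read in any MII library. Among fibrillar collagens, *Col24a1* alone had more than 3 reads in all 6 MII libraries (141, 37 and 42 *in vivo* and 64, 53 and 36 *in vitro*).

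Collagen VI, which forms beaded filaments near basement membranes, had reads of its first 3 chains in every microdissected library. *Col6a2* had 12 to 21161 reads (mean 95.5 TPM), *Col6a1* 15 to 5852 and *Col6a3* 3 to 11509. The TPM ratio of *Col6a1* to *Col6a2* was 0.157 to 45.04 and was above 1 in 6 of the 12 libraries. In MII oocytes *Col6a1* and *Col6a2* had no read in any library, whereas *Col6a3* had 211 to 406. Of the fibril-associated (FACIT) collagens, *Col12a1* was above 3 reads in every microdissected library (909 to 26803) and had at most 2 reads in MII oocytes. Of the collagens of the basement membrane zone, *Col18a1* had 2 to 157 reads, *Col15a1* 0 to 1187 and *Col7a1* 0 to 573.

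*Sparc* and *Fn1* code for secreted proteins of the interstitial matrix, a collagen-binding glycoprotein and fibronectin. *Sparc* had the second highest level in the microdissected libraries (mean 415 TPM), with 11250, 19257 and 9775 reads in primordial oocytes *in vivo*, 4576, 1919 and 15638 *in vitro*, 18101, 29875 and 2449 in primary oocytes *in vivo* and 1839, 14150 and 1844 *in vitro*. In MII oocytes it had 0 to 16 reads. *Fn1* had 867, 820 and 2 reads in primordial oocytes *in vivo* and 5485, 9104 and 1200 *in vitro*, then 84, 8530 and 49 in primary oocytes *in vivo* and 1469, 2792 and 793 *in vitro*. Its primordial groups did not overlap, and MII oocytes had 18 to 105 reads of it.

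Among the collagen IV chains, *Col4a5* had the highest mean (164 TPM), with 16928, 3355 and 1163 in primordial oocytes *in vivo*, 1630, 29704 and 17400 *in vitro*, 0, 17486 and 0 reads in primary oocytes *in vivo* and 5391, 893 and 2655 *in vitro*. The 0 values stood beside 17486 reads in a library of the same group.

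The pair *Col4a1* and *Col4a2*, which code for the chains of the common collagen IV trimer, did not move in step. *Col4a1* had 572, 2557 and 330 reads in primordial oocytes *in vivo*, 6753, 1624 and 6169 *in vitro*, 2102, 2286 and 42 in primary oocytes *in vivo* and 1073, 1784 and 865 *in vitro*. *Col4a2* had 2493, 1048 and 1828, 1439, 581 and 3020, 56, 985 and 2, and 403, 343 and 100. The TPM ratio of *Col4a1* to *Col4a2* was 0.160 to 33.3 in the 12 libraries, with a median of 2.42. In MII oocytes *Col4a1* had 9 to 124 reads and *Col4a2* 1 to 27, and 2 MII *in vivo* libraries held equal numbers of both (25 and 25, 14 and 14). The exons of these genes overlap on opposite strands and the counting is not stated to use strand, so that reads at their shared start cannot be assigned. *Col4a3*, a chain of the collagen IV of mature basement membranes, had 0 to 125 reads in the microdissected libraries and 173, 34 and 23 reads in MII *in vivo* and 96, 310 and 139 in MII *in vitro*.

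*Lamb1*, the beta-1 laminin chain, was the laminin with the highest level in both kinds of library, with a mean of 240 TPM in the microdissected and 244 TPM in the MII libraries. In the microdissected libraries it had 10131, 8455 and 16193 reads in primordial oocytes *in vivo*, 11611, 18089 and 23820 *in vitro*, 4540, 8560 and 28945 in primary oocytes *in vivo* and 36095, 6530 and 14724 *in vitro*. *Lamc1*, the gamma-1 chain that joins it in most laminins, had 3076, 8027 and 4740 reads in primordial oocytes *in vivo*, 220, 12478 and 3079 *in vitro*, 1878, 10859 and 2313 in primary oocytes *in vivo* and 6284, 9741 and 4624 *in vitro* (mean 92.7 TPM), and the TPM ratio of *Lamb1* to *Lamc1* was 0.559 to 44.02, with a median of 2.70. Of the alpha chains, *Lama2* had 29 to 10883 reads and *Lama1* 210, 91 and 931 in primordial oocytes *in vivo*, 139, 15 and 509 *in vitro* and 56 to 1392 in primary oocytes, and *Lama3*, *Lama4* and *Lama5* each had at least 1 library at 0.

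Of the linkers, *Nid1* (nidogen-1) had 280, 7571 and 11484 reads in primordial oocytes *in vivo*, 343, 5847 and 2694 *in vitro*, 193, 8019 and 90 in primary oocytes *in vivo* and 614, 5615 and 1098 *in vitro*. *Nid2* (nidogen-2) had 188, 2153 and 9 reads, 53, 0 and 5956, 1272, 3409 and 0, and 38, 4334 and 254 in the same order. For both nidogens the groups overlapped in every comparison. *Hspg2* (perlecan) had 6250, 7219 and 4682 reads, 2127, 1081 and 12679, 25045, 7554 and 16, and 3910, 9590 and 5231. *Agrn* (agrin) had 110, 1545 and 42 reads, 0, 12179 and 36, 53, 4235 and 15, and 48, 71 and 30. In MII oocytes *Hspg2* had 2, 0 and 0 reads *in vivo* and 0, 1 and 0 *in vitro*, *Nid1* 2, 0 and 24 against 7, 6 and 26, *Nid2* 8, 0 and 10 against 7, 13 and 3, and *Agrn* 0, 135 and 13 against 32, 68 and 70.

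The cross-linking enzymes had fewer reads and more libraries at 0. *Loxl1*, a lysyl oxidase-like enzyme of elastic fibres, had 2694, 2273 and 1 reads in primordial oocytes *in vivo*, 0, 0 and 1805 *in vitro*, 2, 1973 and 0 in primary oocytes *in vivo* and 211, 1490 and 50 *in vitro*. *Loxl2* had 2, 1128 and 0 reads, 15, 1 and 1, 0, 22 and 0, and 11, 8 and 377 in the same order. *Loxl3* had 0, 3 and 0 reads, 94, 0 and 237, 0, 232 and 0, and 182, 1477 and 324. *Lox* had no read in primordial oocytes *in vivo*, 0, 1 and 0 *in vitro*, 0, 850 and 430 in primary oocytes *in vivo* and 193, 8 and 0 *in vitro*. In MII oocytes *Lox* and *Loxl4* had no read and *Loxl2* had 44, 30 and 28 *in vivo* and 42, 17 and 38 *in vitro*.

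*Pxdn* had reads in all 12 microdissected libraries: 917, 163 and 14 in primordial oocytes *in vivo*, 1288, 42 and 1048 *in vitro*, 948, 1400 and 12 in primary oocytes *in vivo* and 1100, 1447 and 2145 *in vitro*. Its level there was 0.197 to 28.3 TPM.

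**Figure D3:**
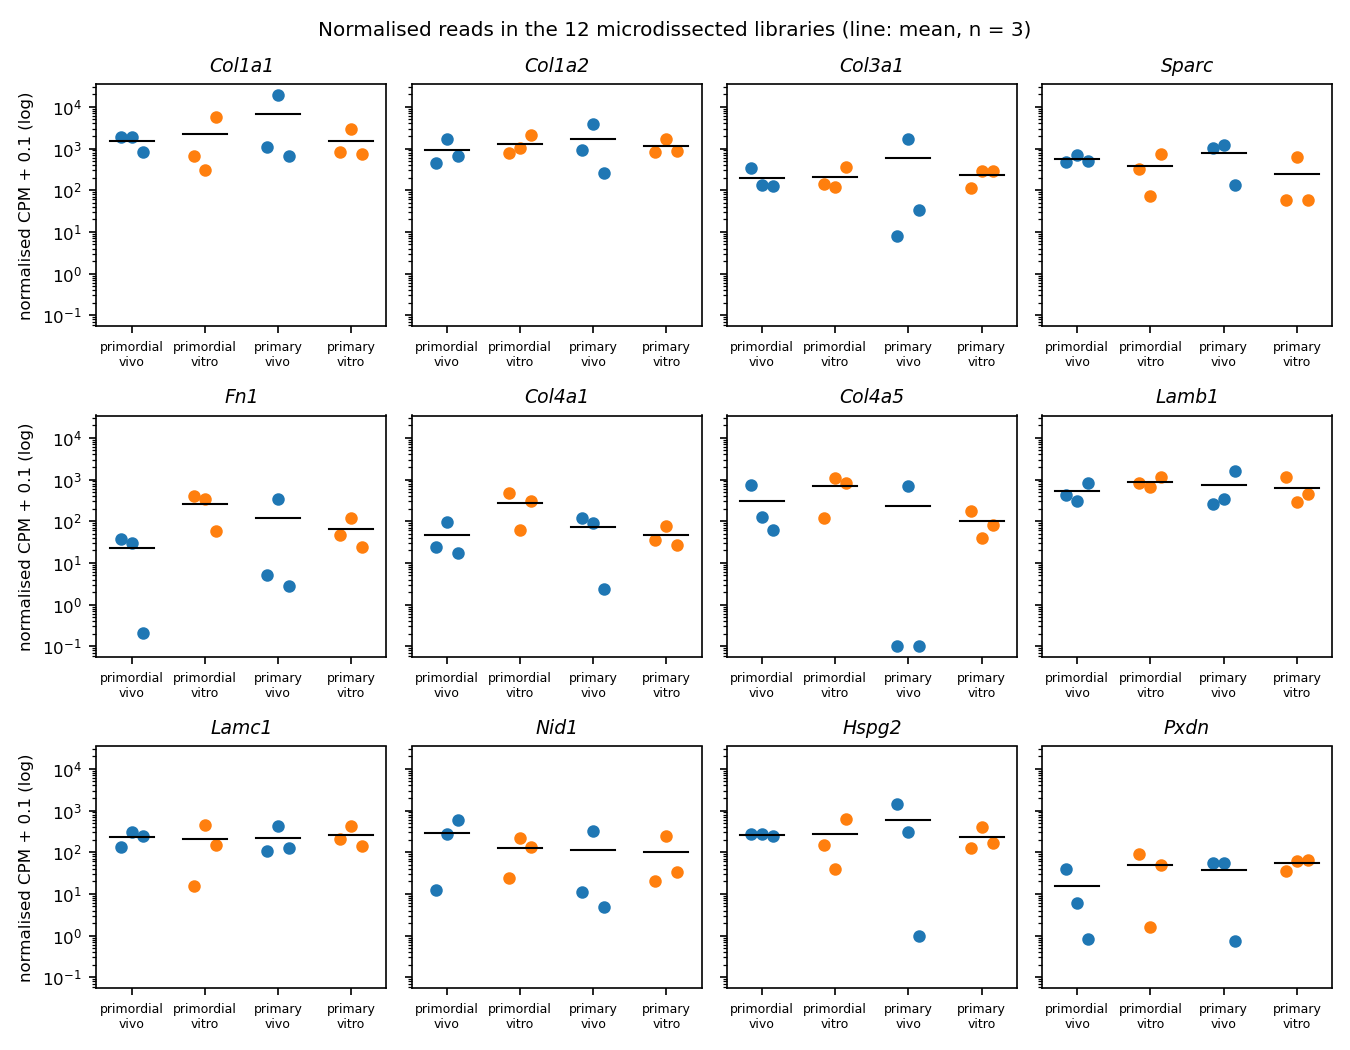
Normalised CPM + 0.1 on a log axis of 12 matrix genes in the 12 microdissected libraries, with 1 point per library (blue *in vivo*, orange *in vitro*) and a line at the mean of the 3 libraries of a group. The points of a group spread widely, as for *Hspg2* in primary oocytes *in vivo* (16 to 25045 reads), and of the 12 genes only *Fn1* in primordial oocytes has groups that do not overlap in a comparison.

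The spread within groups was large. Of the members with at least 100 reads in 1 library of a group, 12 of 42 were at or under the floor of 3 in a sister library of primordial oocytes *in vivo*, 14 of 40 in primordial *in vitro*, 20 of 45 in primary *in vivo* and 7 of 45 in primary *in vitro*. These shares were 15.6% to 44.4% for the members and 29.04% to 60.1% for all genes. In MII oocytes 1 of 18 members *in vivo* and 0 of 14 *in vitro* did so, against 0.864% and 0.432% of all genes. In the microdissected libraries 21 members had at least 50% of their summed CPM in a single library. Exons of 22 members, among them *Fn1*, *Lama2*, *Lox*, *Lamc3*, *Col4a3*, *Col9a3* and *Col15a1*, overlap another gene, so that their reads are less certain.

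Only members with at least 10 reads over the libraries of a fit were tested, 58 of the 66 in the microdissected and 39 besides *Pxdn* in the MII libraries. The first comparison asked what ovary culture did to the matrix reads of primordial oocytes. No member of 58 tested was called by edgeR's quasi-likelihood test (Benjamini-Hochberg adjusted p below 0.05 and at least 2-fold), as against 0.0326% of all 15317 genes. Unadjusted p below 0.05 was reached by 4 members (1 higher and 3 lower *in vitro*, 11.7% of all genes), and DESeq2 called 3 of 44 (*Col9a2* higher on 2 reads in all, *Col8a2* and *Col26a1* lower, 9.30% of all genes). The groups did not overlap for *Fn1* and *Col15a1*, which were higher *in vitro*, and for *Col4a3* and *Col26a1*, which were lower (6.59% of all genes).

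*Fn1* had the largest levels among these, 263 ± 180 normalised CPM *in vitro* against 22.6 ± 19.7 *in vivo* (SD, n = 3). Its log2 fold change was 3.54 ± 2.59 (SE) with an edgeR adjusted p of 0.565, so that the difference did not pass the test. The members with the smallest p were *Col13a1*, a transmembrane collagen, with all 654 of its reads in a single *in vitro* library, *Col4a3* (16, 70 and 10 reads *in vivo*, none *in vitro*) and *Col14a1*, a fibril-associated collagen, with 2293 reads in 1 *in vivo* library. Their edgeR adjusted p were 0.359, 0.378 and 0.386. The reads of *Col13a1* and *Col14a1* rest on 1 library each. The median log2 fold change of the members was 0.51 (0.19 with genes at the floor set to their bound) and that of all genes 0.00. Without primordial *in vitro* library 3 the medians were -0.36 for the members, of the opposite sign, and -0.66 for all genes. The members' median was then 0.30 above that of all genes. Without primordial *in vivo* library 2 the medians were 1.11 and 0.00, and on the log2(TPM + 1) scale 0.018 and -0.028.

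In primary oocytes no member of 58 was called in the culture comparison either (0% of all genes). Unadjusted p below 0.05 was reached by 5, all lower *in vitro* (9.66% of all genes), and DESeq2 called 2 of 44, *Col8a2* and *Col11a2*, both lower (2.86% of all genes). *Col8a2*, a short-chain network collagen, had 10915, 745 and 0 reads *in vivo* and none *in vitro*, so that it was at least 1727-fold lower *in vitro* against the floor of 3 reads per library, and at least 116-fold without primary *in vivo* library 1 (edgeR adjusted p 0.440, in a group where 1 of 3 *in vivo* libraries was also at 0). *Col14a1* and *Col11a2* had reads only in primary *in vivo* library 2 (1060 and 213), so that their values rest on that library.

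*Col1a1* was 1514 ± 1262 normalised CPM *in vitro* and 6821 ± 10312 *in vivo* (SD, n = 3), a log2 fold change of -2.17 ± 1.10 (SE) with an edgeR adjusted p of 0.516. Without primary *in vivo* library 2 it was 0.80, of the opposite sign. The groups did not overlap for 4 members, all higher *in vitro* (9.99% of all genes): *Lama1* (56, 278 and 326 reads *in vivo*, 557, 900 and 1392 *in vitro*), the fibrillar chains *Col11a1* and *Col24a1*, and *Col26a1*. For *Lama1*, the alpha-1 laminin chain, the means were 33.4 ± 13.4 and 10.7 ± 7.23 normalised CPM (SD, n = 3), and its edgeR adjusted p rounded to 1.00.

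The median of all genes was itself 0.44 in this comparison under TMM scaling (0.17 with DESeq2 size factors), while that of the members was -0.78 (-0.68 with genes at the floor set to their bound), which is 1.22 lower than all genes (1.23 with DESeq2 size factors). Without primary *in vivo* library 2 the medians were 0.97 for the members and 2.34 for all genes. On the log2(TPM + 1) scale they were 0.36 and 0.38.

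The stage comparison *in vivo*, primary against primordial oocytes, called no member of 58 (0.0522% of all genes). Unadjusted p below 0.05 was reached by 7, 6 higher and 1 lower in primary oocytes (11.2% of all genes), and DESeq2 called 4 of 44, *Col9a2* and *Lox* higher and *Col24a1* and *Col26a1* lower (6.42% of all genes). *Col9a2*, a fibril-associated collagen, had 8075, 468 and 0 reads in primary oocytes *in vivo* and none in primordial oocytes *in vivo*, at least 1305-fold higher against the floor, and at least 75.01-fold without primary *in vivo* library 1 (edgeR adjusted p 0.380). *Lox*, the lysyl oxidase named above, was at least 153-fold higher with the same adjusted p (at least 93.3-fold without primary *in vivo* library 2), and also had 1 primary library at 0. The groups did not overlap for *Col24a1* (6, 688 and 19 reads in primordial and none in primary oocytes), *Col4a3* and *Col6a4*, all lower in primary oocytes (6.39% of all genes). *Col1a1* had a log2 fold change of 2.15 ± 1.10 (edgeR adjusted p 0.446), and of -0.82 without primary *in vivo* library 2. The median was 0.59 for the members and 0.00 for all genes, and -1.82 and -1.35 without that library. On the log2(TPM + 1) scale the medians were -0.064 and -0.022, and on the log2(TPM + 0.1) scale -0.28 and -0.13.

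In culture, the same stage comparison called no member of 58 (0% of all genes), with 7 at an unadjusted p below 0.05, 4 higher and 3 lower in primary oocytes (10.9% of all genes). DESeq2 called 1 of 44, *Col11a2*, lower (5.32% of all genes). The smallest p belonged to *Col11a2* (0, 1637 and 11 reads in primordial and none in primary oocytes), *Col13a1* and *Col17a1*, a collagen of epithelial hemidesmosomes with 226 reads in 1 primordial library, all with an edgeR adjusted p of 0.384. The groups did not overlap for 5 members (11.2% of all genes): *Col9a3*, *Col26a1* and the gamma-3 laminin chain *Lamc3* were higher and *Col4a2* and *Lama2* lower in primary oocytes. *Col4a2* was 10.3 ± 6.32 normalised CPM in primary and 90.3 ± 63.3 in primordial oocytes, and *Lama2*, the alpha-2 laminin chain, 110 ± 70.8 and 417 ± 316 (SD, n = 3), with edgeR adjusted p of 0.812 and 0.851. The median was -0.45 for the members and 0.44 for all genes (-0.66 and 0.21 with DESeq2 size factors). Without primordial *in vitro* library 3 the medians were 0.12 for the members, of the opposite sign, and 1.54 for all genes. Without primary *in vitro* libraries 1, 2 and 3 in turn they were -0.12, -1.15 and -0.12 for the members and 0.12, 0.20 and 0.02 for all genes. In each of these fits the members' median was below that of all genes. On the log2(TPM + 1) scale the medians were -0.004 and 0.41.

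Whether culture acted differently in primary and primordial oocytes was tested by the interaction term, which called no member of 58 (0.104% of all genes). Unadjusted p below 0.05 was reached by 7, 5 higher and 2 lower (11.5% of all genes), and DESeq2 called 3 of 44: *Col26a1* higher and *Col9a2* and *Col11a2* lower (6.24% of all genes). The smallest p belonged to *Col13a1*, *Col9a3* and *Col4a3*, with edgeR adjusted p of 0.270, 0.301 and 0.313. *Col13a1* had 654 reads in primordial *in vitro* library 3, 2 in primary *in vivo* library 2 and none in the 10 other microdissected libraries. *Col9a3* had 0, 91 and 5 reads in primordial oocytes *in vivo* and none *in vitro*, then 0, 0 and 8 in primary oocytes *in vivo* and 224, 1 and 148 *in vitro*. *Col4a3* had 0, 9 and 0 reads in primary oocytes *in vivo* and 1, 0 and 125 *in vitro*, beside the primordial values above. *Col26a1*, a collagen of testis and ovary, had 281, 1582 and 9 reads in primordial oocytes *in vivo* and 0, 0 and 4 *in vitro*, but 0, 14 and 4 in primary oocytes *in vivo* and 35, 142 and 64 *in vitro*. It was thus lower with culture in primordial and higher with culture in primary oocytes without overlap in either. How many of all genes had this pattern was not counted. The interaction of *Col26a1* was 11.93 on the log2 scale (SE 5.55), with an edgeR adjusted p of 0.374 and a DESeq2 adjusted p of 0.00204. The median interaction was -1.23 for the members and 0.91 for all genes (-1.65 and 0.61 with DESeq2 size factors). Without primary *in vivo* library 2 the medians were 0.89 and 2.997, so that the sign for the members turned. On the log2(TPM + 1) scale they were -0.14 and 0.52, and on the log2(TPM + 0.1) scale 0.53 and 1.41.

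**Figure D4:**
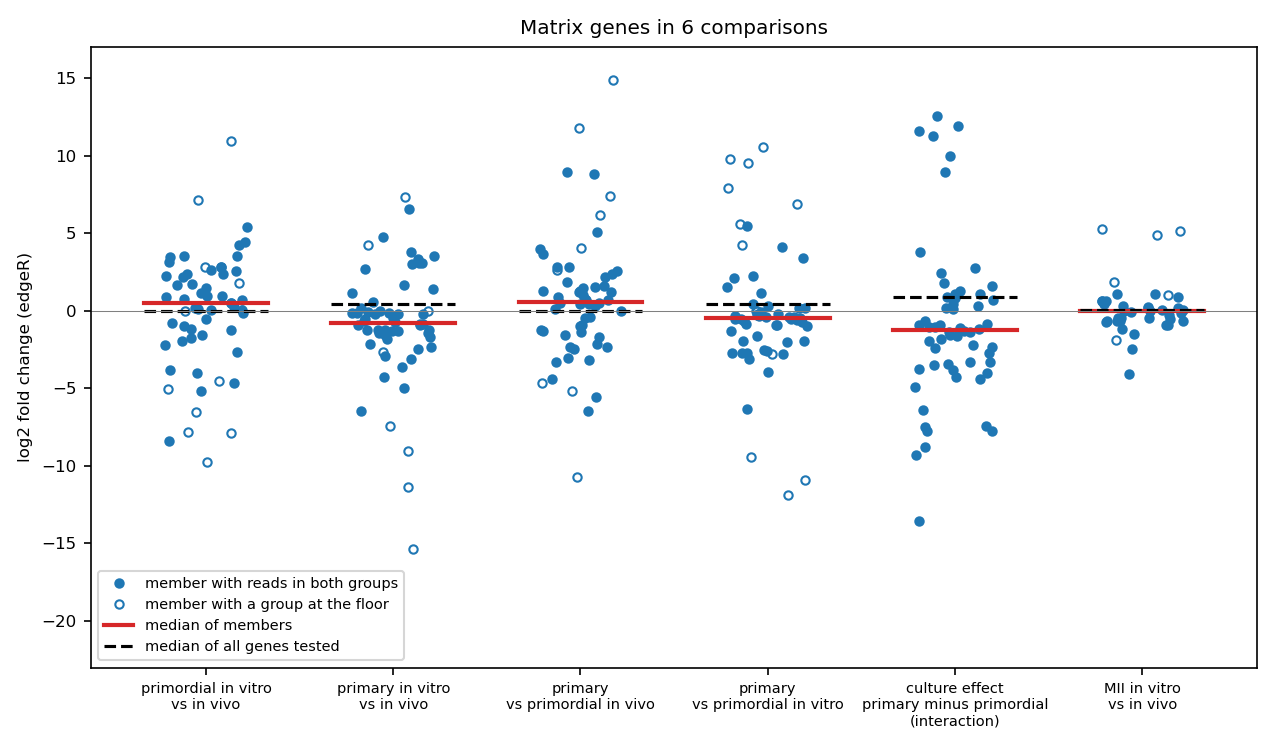
edgeR log2 fold changes of the members in each of 6 comparisons, with 1 circle per gene (open where a group was at or under the floor of 3 reads, a mark not drawn for the interaction), a red line at the median of the members and a dashed line at the median of all genes tested. The microdissected comparisons spread widely, from -15.3 for *Col8a2* to 7.35 for *Col24a1* in primary oocytes, with no member called, and the MII comparison is narrower.

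In MII oocytes the libraries of a group lay closer together, and the matrix reads were mostly *Lamb1*. It took 46.4% to 80.7% of the members' reads in each of the 6 libraries, with 14108, 9658 and 10282 reads *in vivo* and 5353, 3129 and 6908 *in vitro*. The highest *in vitro* value was below the lowest *in vivo* value. Per length, *Lamb1* was 15.7 to 42.9 times as high as *Lamc1* and 8.996 to 37.2 times as high as *Lama2* in the same libraries, so that the laminin chains were far from equal.

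Next to *Lamb1*, the members with the highest mean level in MII were *Col9a3* (13.2 TPM), *Loxl3* (12.9 TPM), *Lama2* (9.503 TPM) and *Lamc1* (8.36 TPM). Exons of *Col9a3*, *Loxl3* and *Lama2* overlap *Tcfl5*, *Htra2* and *Gm48084* on the opposite strand, so that their reads and ranks are less certain. *Loxl3*, a lysyl oxidase-like enzyme, had 171, 149 and 228 reads *in vivo* and 132, 277 and 265 *in vitro*, groups that overlapped. *Lama2* had 782, 635 and 596 reads *in vivo* and 237, 573 and 338 *in vitro*, and *Lamc1* 288, 188 and 295 against 204, 166 and 287. Of the other laminin chains, *Lama4* had 101, 166 and 273 reads *in vivo* and 149, 238 and 157 *in vitro*, *Lama5* 49 to 100 and *Lama1* 6 to 38, while *Lamb2* had at most 14 and *Lamc3* none. *Col19a1* (31, 25 and 115 reads *in vivo*, 116, 107 and 137 *in vitro*) and *Col13a1* (53 to 134 reads) were also present in all 6.

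The comparison of MII oocytes *in vitro* and *in vivo* called no member of 39 tested (0.350% of all 17144 genes), *Pxdn* being left out. Unadjusted p below 0.05 was reached by 4, all lower *in vitro* (10.2% of all genes), and DESeq2 called 0 of 31 (2.28% of all genes). The groups did not overlap for 6 members, all lower *in vitro* (16.2% of all genes): *Lamb1*, *Lama2*, *Loxl1*, *Col6a3*, *Col6a5* and *Col9a3*.

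*Lamb1* was 564 ± 244 normalised CPM *in vitro* and 1301 ± 337 *in vivo* (SD, n = 3), a log2 fold change of -1.21 ± 0.40 (SE), with an edgeR adjusted p of 0.342 and a DESeq2 adjusted p of 0.0918. *Lama2* was 39.8 ± 13.4 and 77.0 ± 16.1 normalised CPM, a log2 fold change of -0.95 ± 0.38 with an edgeR adjusted p of 0.432. Both laminin chains were lower *in vitro* in all 3 libraries, yet their differences did not pass the adjusted threshold.

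*Loxl1* had 9, 51 and 19 reads *in vivo* and 0, 4 and 1 *in vitro*, a log2 fold change of -4.08 ± 1.53 (edgeR adjusted p 0.413). *Col6a3* and *Col6a5*, chains of the beaded-filament collagen VI, had 406, 304 and 386 against 218, 305 and 211 reads and 80, 140 and 82 against 36, 44 and 36 reads. After normalisation these did not overlap, and the log2 fold changes were -0.68 ± 0.38 and -1.49 ± 0.60. *Col9a3*, a chain of the fibril-associated collagen IX, had 192, 259 and 211 reads *in vivo* and 129, 186 and 64 *in vitro* (log2 fold change -0.93 ± 0.48). The median over the 39 members was -0.03 and over all genes 0.04, and with 1 library left out that of the members was -0.29 to 0.14.

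**Figure D5:**
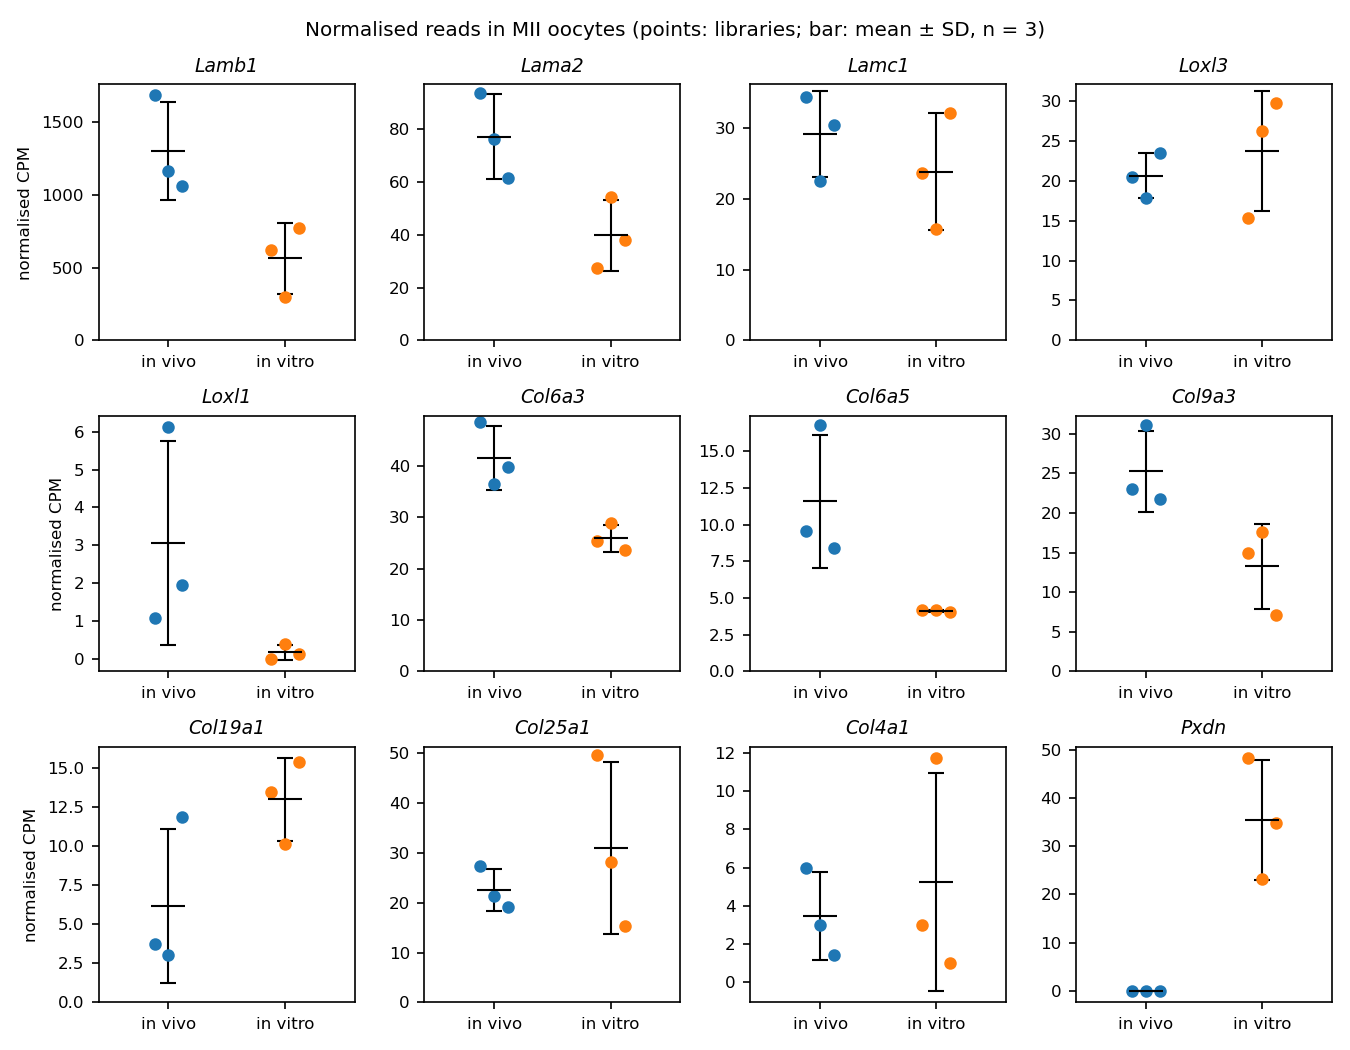
Normalised CPM of 12 matrix genes in the 6 MII libraries on linear axes, with 1 point per library (blue *in vivo*, orange *in vitro*) and bars at the mean ± SD (n = 3). *Lamb1*, *Lama2*, *Loxl1*, *Col6a3*, *Col6a5* and *Col9a3* lie lower *in vitro* without overlap, and *Pxdn* is at 0 in the 3 *in vivo* libraries.

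*Pxdn* was selected by its MII values, which follow as a description. It had 0, 0 and 0 reads in MII oocytes *in vivo* and 416, 246 and 310 *in vitro*, or 10.2, 7.24 and 9.85 TPM. A count of 0 allowed up to 0.304, 0.409 and 0.335 CPM in the *in vivo* libraries. The *in vitro* levels lay inside the range of the microdissected libraries given above, where *Pxdn* had reads in all groups, so that it was without a detected read in MII oocytes *in vivo* alone. *Pxdn* lies at chr12:29937608-30017658 on the plus strand and *Lamb1* at chr12:31265234-31329644 (GRCm38, protein-coding, no exon shared with another gene).

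Of 14 granulosa markers, 3 had more than 3 reads in all 6 MII libraries: *Cyp19a1* (1039, 350 and 479 *in vivo*, 334, 655 and 611 *in vitro*), *Nr5a2* (82 to 233) and *Kitl* (27 to 167). *Foxl2* and *Amhr2* had 0 reads in all 6 and *Wt1* at most 1. *Fshr* had 0, 0 and 23 reads *in vivo* and 11, 47 and 20 *in vitro*, and *Inhba* 0, 0 and 0 against 23, 15 and 51. The summed granulosa markers were 74.5 to 130 CPM *in vivo* and 62.7 to 110 CPM *in vitro*. The summed stroma and theca markers were 2.57 to 15.5 CPM and 4.07 to 7.52 CPM. The part of these cells in the MII values was not tested.

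The genes that act on these proteins were described from 4 lists. Enzymes and chaperones of collagen folding and processing had 19 members, of which edgeR called none in any of the 6 comparisons. In MII oocytes 12 were tested and 11 had a negative log2 fold change, with a median of -1.14 (-0.75 with the gene at the floor set to its bound). The median of all genes was 0.04. *P4hb*, the beta subunit of prolyl 4-hydroxylase, had 5741, 3026 and 3102 reads *in vivo* and 1493, 1798 and 1696 *in vitro* (log2 fold change -1.36 ± 0.36, edgeR adjusted p 0.184), and *Plod1*, a lysyl hydroxylase of collagen, had 45, 342 and 235 against 16, 52 and 20 reads (edgeR adjusted p 0.146). DESeq2 called these 2 of 8 in the list, both lower (2.28% of all genes). *Serpinh1*, the collagen chaperone HSP47, had 1241 to 16282 reads in the microdissected libraries and none in MII oocytes.

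Matrix receptors (16 genes) had 12 tested in MII oocytes, 9 with a negative log2 fold change and a median of -0.60 (0.04 for all genes). DESeq2 called 1 of 11, *Itgb4*, lower (2.28% of all genes). Small proteoglycans and elastic fibre genes (12 genes) had 8 tested, 7 with a positive log2 fold change and a median of 1.56. DESeq2 called 1 of 8, *Fbn2*, higher (2.28% of all genes). *Fbn2*, fibrillin-2, had 23, 116 and 165 reads *in vivo* and 626, 512 and 377 *in vitro* (log2 fold change 2.27 ± 0.57, edgeR adjusted p 0.153). Matrix proteases and inhibitors (11 genes) had 6 tested, 4 with a positive log2 fold change, and a median of 3.58. In 3 of these 6 (*Mmp3*, *Timp3* and *Timp4*) the *in vivo* libraries had no read, and with them at their bound the median was 1.12. In the microdissected comparisons edgeR called none of the 4 lists' genes, 0 to 2 per list had an unadjusted p below 0.05 (9.66% to 11.7% of all genes), and DESeq2 called 0 or 1 per list (2.86% to 9.30% of all genes): *P4ha2* higher with culture at both stages, *Adamts3* higher in primary oocytes *in vitro* and *Fbln5* lower with culture in primordial oocytes. *P4ha2* had 38, 0 and 2402 reads in primordial and 0, 0 and 28 in primary oocytes *in vitro*, and none *in vivo*. Its value in primary oocytes thus rests on 1 library. *Adamts3* had 1, 1678 and 120 reads in primary oocytes *in vitro* and none in the other microdissected groups. *Fbln5* had 136, 0 and 245 reads in primordial oocytes *in vivo* and none *in vitro*. In MII oocytes 2, 3, 1 and 2 genes of the folding, receptor, protease and proteoglycan lists had an unadjusted p below 0.05, of 12, 12, 6 and 8 tested (10.2% of all genes).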

How the data were processed

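RNA was measured in 18 mouse oocyte libraries. Reads were trimmed with Trim Galore 0.4.1, mapped to mm10 with TopHat2 and counted per gene with featureCounts by the authors, who deposited the raw read counts of 53715 genes, without normalization. The authors also deposited TPM values, corrected for length and library size, for 28252 genes. Strand use in counting and the treatment of reads with several places are not given in the sources used here, so that values of the 22 members with an exon overlapping another gene are uncertain. All columns were used.

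Members were found by symbol in the TPM table and their counts by Ensembl identifier. The members, gene lists and tests were chosen with earlier results of these data known. Groups and replicate numbers came from the sample labels. Counts were fitted with edgeR 4.0.16 (R 4.3.3, quasi-likelihood test, robust, TMM scaling, genes with at least 10 counts in total), in 1 fit of the 12 microdissected and 1 fit of the 6 MII libraries, and p-values were adjusted over all genes tested. A call needed an adjusted p below 0.05 and a fold of at least 2. Fitted values are normalised CPM. The SE of a log2 fold change is its absolute value divided by the square root of the quasi-likelihood F statistic. It is therefore derived from the test and is not a separate measure of spread. DESeq2 1.42.0 and limma 3.58.1 on log2(TPM + 1) were alternatives, as were other filters, size factors, a replicate block and leaving out each library. Same-numbered libraries did not deviate together, with correlations from -0.066 to 0.090 in the microdissected and from -0.024 to 0.016 in the MII libraries, so that the numbers were not used as pairs. Genes given values by library in the text were those listed by name, the 5 members with the highest mean TPM in each kind of library, any member called and the 3 with the smallest p per comparison, and other members were named where a count of 5 or fewer called for it. The values of 1 member are not reported here by name.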

Additional observations from a re-analysis of the deposited data

Results flagged for a closer look

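*Col26a1* moved in opposite directions with culture in the 2 follicle stages. Its log2 fold change between *in vitro* and *in vivo* was -8.40 in primordial and 3.54 in primary oocytes, and in each stage the 3 libraries of one group lay above the 3 of the other. The difference of these effects was tested by the interaction term, which did not pass in edgeR (adjusted p 0.374) and passed in DESeq2 (adjusted p 0.00204). The fold change in primordial oocytes rests on *in vitro* values of 0, 0 and 4 reads. That in primary oocytes rests on *in vivo* values of 0, 14 and 4 reads. *Col26a1* was flagged for this pattern in these same libraries, so that its p-values are those of a picked gene. Groups without overlap were found for 6.59% and 9.99% of all genes in the 2 culture comparisons taken singly. The share with opposite directions in both was not counted, and no explanation was tested.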

How the results depend on the processing

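No member was called in any of the 6 comparisons under DESeq2 size factors, no filter, filterByExpr, no fold threshold, limma on log2(TPM + 1) or log2(TPM + 0.1), or a fit of only the groups compared (4 comparisons), and leaving out each library in turn gave counts from 0 to 0. DESeq2 with its defaults called 3 members in primordial oocytes, 2 in primary oocytes, 4 between stages *in vivo*, 1 between stages *in vitro*, 3 in the interaction and 0 in MII oocytes, and over all genes 812, 244, 561, 454, 558 and 337, where edgeR called 5, 0, 8, 0, 16 and 60. The cause was not tested. With the replicate block the count of members called was 0 in all 6 comparisons, and that of all genes 1, 0, 0, 0, 0 and 85. The number shared by libraries is only a name, as same-numbered libraries did not deviate together.

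Of 26 fold changes followed, *Col1a1* changed sign in both of its comparisons without primary *in vivo* replicate 2: to 0.80 in the culture comparison of primary oocytes and to -0.82 between stages *in vivo*. With 1 library left out its values ranged from -3.11 to 0.80 and from -0.82 to 2.69. Leaving out the only library with reads left no value for *Col14a1* and *Col11a2* in primary oocytes and for *Col17a1* between stages *in vitro*. The *Lamb1* fold change in MII oocytes ranged from -1.52 to -0.90 with 1 library left out. With at least 1 read asked for the mean number of members detected per MII library was 33.3, and with more than 10 reads 25, against 30. Depth limits what a 0 can show to the floors given above, and the spread between microdissected libraries limits the fold changes there.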
